A study of Arabidopsis thaliana with 6 samples.

Results

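The growth-regulating factors (GRFs) are plant transcription factors, and 7 genes of the family, named by locus, were followed among the 21428 probe sets of an Arabidopsis thaliana leaf experiment. They were GRF1 (AT2G22840_at), GRF2 (AT4G37740_at), GRF3 (AT2G36400_at), GRF5 (AT3G13960_at), GRF6 (AT2G06200_at), GRF7 (AT5G53660_at) and GRF8 (AT4G24150_at), where the name of each probe set is the locus it measures. GRF1, GRF3 and GRF6 lie on chromosome 2, GRF5 on chromosome 3, GRF2 and GRF8 on chromosome 4 and GRF7 on chromosome 5. GRF4 and GRF9 were not analysed here. Leaves 1 and 2 were taken from 2 kinds of Columbia-0 seedling, an AN3-GR line and the wild type, with 3 arrays each described as biological repeats. AN3-GR is a fusion of the coactivator AN3 to the glucocorticoid receptor domain, which keeps the protein from acting unless dexamethasone, a steroid, is present. Both kinds of plant grew in vitro for 8 days with 16 h of light per day, then spent 8 h on 5 µM dexamethasone, so the controls carry the steroid treatment too. The labels do not name the promoter that drives the fusion, the number of transgenic lines behind the arrays or the number of seedlings pooled per array. AN3-GR seedlings without the steroid were not analysed here. A standing difference of the transgenic plants therefore cannot be told apart from their response to dexamethasone.

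GRF proteins carry a QLQ domain, through which they bind coactivators of the GIF family such as AN3, and a WRC domain, through which they bind DNA. AN3 in turn contacts SWI/SNF complexes, which move nucleosomes, and GRFs and AN3 together keep leaf cells dividing. Most Arabidopsis GRF transcripts carry a site for the microRNA miR396, which lowers them as leaf cells stop dividing. GRF5 and GRF6 lack this site.

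The transcript of AN3 itself, the gene carried by the fusion, was checked first. Its log2 expression values were 10.56, 10.02 and 10.55 on the AN3-GR arrays of replicates 1, 2 and 3, and 7.39, 6.98 and 7.61 on those of the wild type. Every AN3-GR array lay above every wild type array, as the labels would have it. Markers of young leaf tissue gave strong signals in both genotypes, with array means of FIL, YAB3 and AS1 between 9.48 and 9.52 in AN3-GR and between 9.40 and 9.42 in the wild type. Those of the shoot meristem were near the bottom of the scale, since the array means of STM, WUS, CLV3 and KNAT1 ran from 3.57 to 3.79 over both genotypes, where the lower quartile over the whole table was 4.06. Of 4 root markers measured 3 were below 4.06 as well. The exception was PYK10, a beta-glucosidase of root and hypocotyl, at 10.57 in AN3-GR and 10.52 in the wild type, a change of 0.05 (SE 0.19). The 10 stomatal, vascular, epidermal and floral markers included 0 genes past the test in limma (1 at an unadjusted p under 0.05, the phloem gene APL at 0.28), and mesophyll markers were not analysed here. RNA came from whole dissected leaves, so fewer cells of a type and less RNA per cell cannot be told apart.

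Of the GRFs, 4 were higher in AN3-GR leaves. GRF5 rose 2.32-fold, GRF6 1.92-fold, GRF3 1.54-fold and GRF8 1.51-fold. GRF1, GRF2 and GRF7 did not pass the test, with log2 changes of 0.30, 0.18 and −0.12. A gene was said to have changed at an adjusted p under 0.05, from limma with Benjamini-Hochberg adjustment over all probe sets, two-sided. By that rule 0.560% of all probe sets were higher in AN3-GR (120 of them), and 0.789% changed in either direction, with 49 lower. When each array was centred on its median, the numbers were 69 higher and 70 lower. The median change was 0.59 over the 7 GRFs and −0.02 over all probe sets. Over all probe sets 18.0% had an unadjusted p under 0.05. The members were picked with results of these arrays known, so their number past the threshold is a description.

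**Figure D1:**
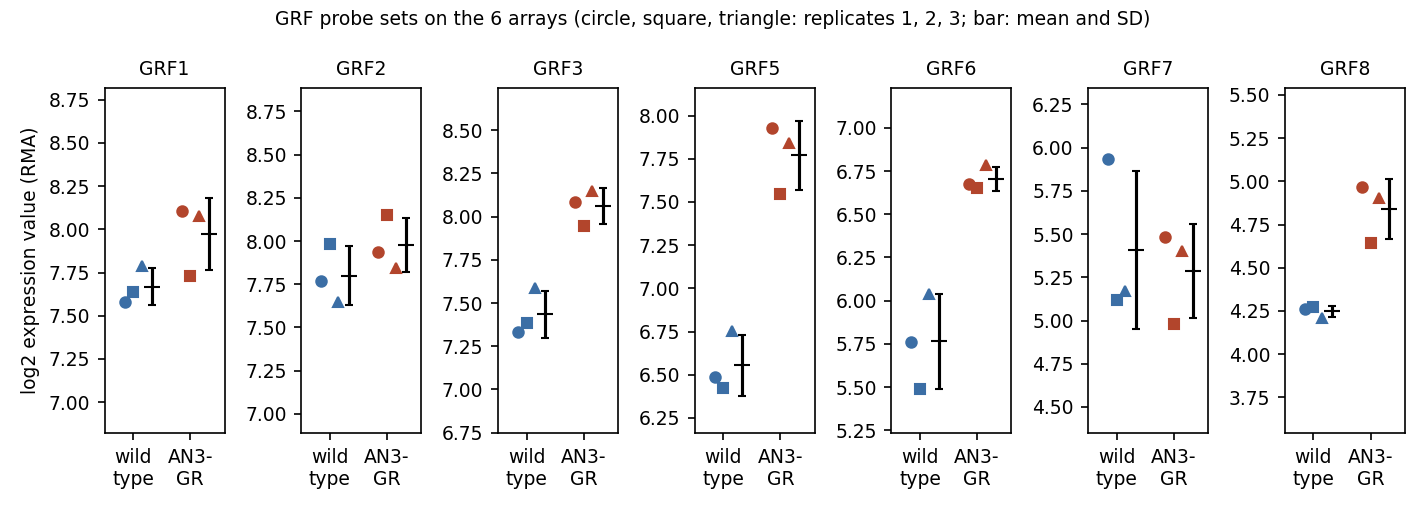
Log2 expression values (RMA, vertical axis, a span of 2 units in every panel but at a different height) of the 7 GRF probe sets on the wild type arrays (blue) and the AN3-GR arrays (red); circles, squares and triangles are replicates 1, 2 and 3, and the black bars are the mean and SD of 3 arrays. The genotypes are apart in the panels of GRF3, GRF5, GRF6 and GRF8 and overlap in those of GRF1, GRF2 and GRF7.

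GRF5 promotes cell proliferation in leaves and binds AN3. Its values on replicates 1, 2 and 3 were 7.93, 7.55 and 7.84 in AN3-GR and 6.49, 6.42 and 6.75 in the wild type. The genotypes were clearly apart, with 0.79 log2 units between the lowest AN3-GR array and the highest wild type array. The change was 1.22 on the log2 scale (SE 0.13, 95% interval 0.92 to 1.51; limma adjusted p = 0.0114). It ranked 11 among the rises of all probe sets.

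GRF6 shares with GRF5 the lack of a miR396 site. It gave 6.67, 6.65 and 6.78 in AN3-GR and 5.76, 5.49 and 6.04 in the wild type. All AN3-GR arrays lay above all wild type arrays, by at least 0.61, and the wild type was the more variable group, with an SD of 0.28 against 0.07. The change was 0.94 (SE 0.14, 95% interval 0.63 to 1.25; limma adjusted p = 0.0328), the rise of rank 21 among all probe sets. The GRFs with the largest changes were thus both members without the miR396 site. This grouping was not tested.

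GRF3 is a miR396 target, and versions that escape the microRNA give larger leaves. Its values were 8.09, 7.94 and 8.15 in AN3-GR and 7.33, 7.38 and 7.59 in the wild type. The groups did not overlap, and the nearest arrays were 0.36 apart. The change was 0.63 (SE 0.11, 95% interval 0.39 to 0.87; limma adjusted p = 0.0418).

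GRF8 also carries the miR396 site. It was measured at 4.97, 4.64 and 4.91 in AN3-GR and at 4.26, 4.27 and 4.21 in the wild type. The 3 wild type arrays were almost level with one another, and each AN3-GR array was higher by at least 0.37. The change was 0.59 (SE 0.11, 95% interval 0.35 to 0.83; limma adjusted p = 0.0485). Its signal was weak. The wild type values lay just above the lower quartiles of their own arrays, which were 4.21, 4.13 and 3.99, and the lower quartiles of the AN3-GR arrays were 3.99 to 4.05. RMA compresses differences between weak signals, and how far this altered the size of the change was not tested. With the arrays centred on their medians GRF8 no longer passed (change 0.56; adjusted p = 0.0618).

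GRF1 and GRF2 are known, together with GRF3, as overlapping promoters of leaf and cotyledon growth. For GRF1 the AN3-GR values were 8.11, 7.73 and 8.08 and the wild type values 7.58, 7.64 and 7.79. AN3-GR replicates 1 and 3 were above all wild type arrays, while AN3-GR replicate 2 fell inside the wild type range. The change of 0.30 (SE 0.12, 95% interval 0.03 to 0.58) had an unadjusted p of 0.0352 and a limma adjusted p of 0.240. For GRF2 the values were 7.94, 8.15 and 7.84 in AN3-GR and 7.77, 7.98 and 7.65 in the wild type. The groups overlapped, yet replicate 2 was highest and replicate 3 lowest in both genotypes. AN3-GR minus wild type within replicates 1, 2 and 3 was therefore 0.16, 0.17 and 0.20. Over all arrays the change was 0.18 (SE 0.12, 95% interval −0.10 to 0.45; limma adjusted p = 0.475), and with the replicate number as a block its SE was 0.07 (adjusted p = 0.195).

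GRF7 represses the drought and heat regulator DREB2A in unstressed plants. It was the only one of the 7 with a negative change, −0.12 (SE 0.22, 95% interval −0.62 to 0.38; limma adjusted p = 0.807). Its values were 5.49, 4.98 and 5.40 in AN3-GR and 5.93, 5.12 and 5.17 in the wild type. The groups overlapped, and wild type replicate 1 stood 0.76 above the next wild type array. Without that array the change was 0.14 (SE 0.16), and without AN3-GR replicate 2 it was 0.04 (SE 0.23), so leaving out either array turned the sign. The 95% interval leaves room for a change in either direction.

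**Figure D2:**
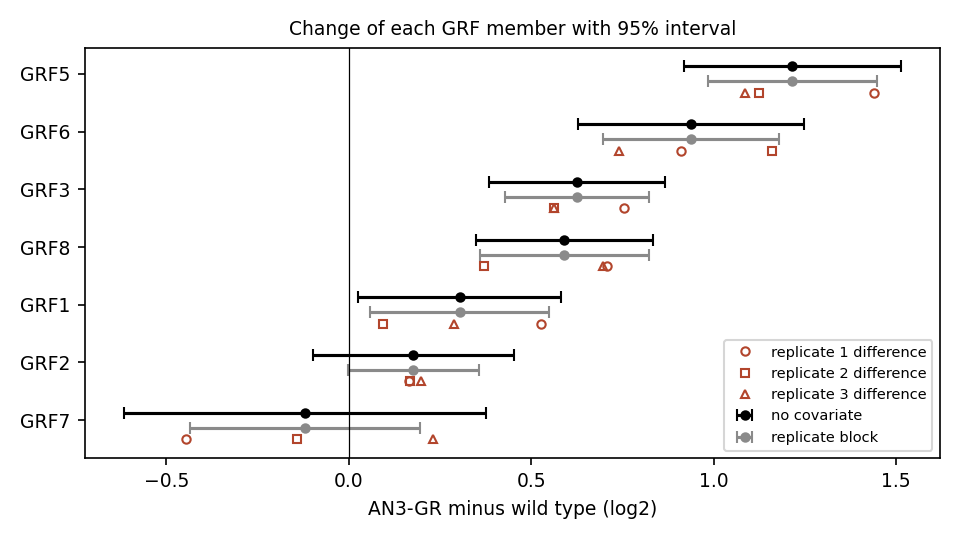
Difference between AN3-GR and wild type (log2, horizontal axis) for each GRF; filled points with bars are the change and its 95% interval without covariate (black) and with the replicate number as a block (grey), and open symbols are the differences within replicates 1, 2 and 3. The intervals of GRF5, GRF6, GRF3 and GRF8 lie above 0.3, and those of GRF2 and GRF7 span 0 in both fits. That of GRF1 begins at 0.03 without covariate and at 0.06 with the block.

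Every AN3-GR array was above every wild type array for 4 of the 7 GRFs, GRF3, GRF5, GRF6 and GRF8, while 12.8% of all probe sets showed this separation. Within replicate numbers, all 3 differences were positive for 6 of the 7, and for GRF7 they were −0.45, −0.14 and 0.23. The share of all probe sets with 3 positive differences was not worked out. With the replicate block the same 4 GRFs passed and their adjusted p-values fell to between 0.0100 and 0.0266 (limma), where 3.59% of all probe sets were higher and 6.63% changed in either direction.

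The sizes of the rises were compared between members through the difference of their log2 values on each array. Such a difference cancels whatever shifts both probe sets equally on an array. GRF5 gained 0.59 on GRF3, 0.62 on GRF8 and 0.91 on GRF1, all without overlap, and 0.28 on GRF6 with overlap. Between members next to each other in the order of change, GRF6 was apart from GRF3 (difference 0.31) and GRF8 from GRF1 (0.29), while GRF5 and GRF6, GRF3 and GRF8 (0.04), GRF1 and GRF2 (0.13), and GRF2 and GRF7 (0.30) overlapped. GRF6 and GRF8, which are not next to each other in that order, overlapped as well (0.35). With 3 arrays a group the exact permutation test over arrays, two-sided, cannot go below p = 0.1, and the smallest value adjusted over the 21 pairs was 0.15, so 0 of these differences passed.

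**Figure D3:**
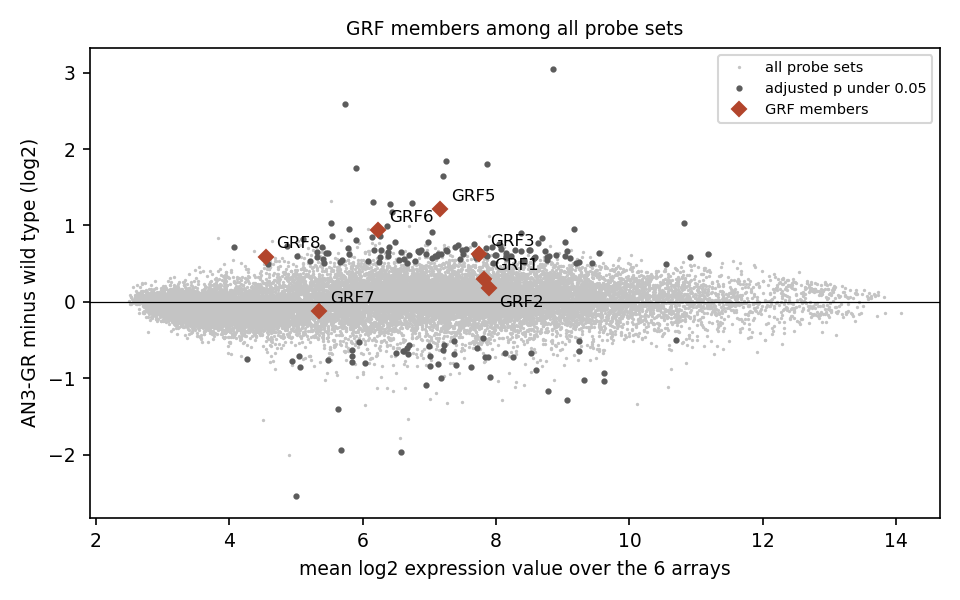
Change between genotypes (AN3-GR minus wild type, log2, vertical axis) against the mean log2 expression value over the 6 arrays (horizontal axis) for all probe sets (light grey), those with an adjusted p under 0.05 (dark grey) and the 7 GRFs (red diamonds). GRF5 and GRF6 stand above most probe sets of like signal, GRF3 and GRF8 lie at the edge of the cloud, and GRF1, GRF2 and GRF7 lie within it.

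AN3-GR replicate 2 had the lowest value of its group for 6 of the 7 GRFs, the exception being GRF2, where it was the highest. The same array was the lowest of its group for 35.5% of all probe sets, and it had the lowest AN3 value of the 3 AN3-GR arrays, 10.02. In the wild type no array took that place: replicate 3 was the highest for 4 GRFs, which were GRF1, GRF3, GRF5 and GRF6, and replicate 2 the lowest for 3. Over all probe sets these wild type shares were 32.2% and 24.6%. Wild type replicate 2 also had the lowest AN3 value of its group, 6.98. These orderings were noticed after the values were seen and were not tested.

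The profiles over the 6 arrays most like those of the GRFs were sought by Pearson's r, as a description, since all probe sets share the same arrays and genotypes. The 3 closest probe sets of each GRF had r between 0.991 and 0.999. The closest to GRF5 was AT3G09720 (r = 0.999, change 0.47), to GRF6 GEX2 (0.998, 0.46), to GRF3 AT3G49320 (0.999, 0.60) and to GRF8 AT5G53770 (0.999, 0.42). Next came AT2G15690 and AT2G43800 for GRF5 (both 0.998, changes 0.41), LOJ (0.998, 0.72) and AT5G63290 (0.997, 0.52) for GRF6, AT3G13940 (0.997, 0.66) and AT3G04820 (0.997, 0.48) for GRF3, and AT1G15420 (0.996, 0.41) and AT3G18210 (0.996, 0.18) for GRF8. Of these 12 probe sets 3 passed the test, AT3G49320 (limma adjusted p = 0.0474), AT3G13940 (0.0336) and LOJ (0.0380). In limma 11 of the 12 had an unadjusted p under 0.05. GRF1 was most like PABN1, a poly(A)-binding protein gene (0.999, change 0.20), GRF2 like AT5G27950 (0.998, 0.19) and GRF7 like AT1G08050 (0.993, −0.05). These were followed by AT1G68340 (0.999, 0.21) and GAE4 (0.999, 0.25) for GRF1, GAUT12 (0.993, 0.11) and AT3G23040 (0.992, 0.09) for GRF2, and AT4G32220 (0.992, −0.05) and LBD18 (0.991, −0.02) for GRF7, and of the 9 probe sets named for these GRFs 0 passed in limma (1 at an unadjusted p under 0.05). No GRF was among the 3 closest of another. Between 35 (GRF7) and 495 (GRF5) of the 21428 probe sets exceeded an r of 0.95 over the 6 arrays, so the 3 named per GRF are not the only close ones. Probe sets chosen for likeness to a GRF tend to share its genotype difference, or its lack, so the counts that passed follow from the choice.

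Genes beside the GRFs on the chromosomes were examined for shared changes. The nearest measured genes on either side made 14 neighbours, of which 0 passed the test in limma, with or without the replicate block, and 1, ELF8, had an unadjusted p under 0.05. Their median change was −0.11 and their range −0.43 to 0.33. GRF5, with its change of 1.22, lay between AT3G13950 (−0.10, SE 0.09) and AT3G13980 (−0.22, SE 0.10). GRF1 lay between SQE2 (−0.14) and bZIP6 (−0.13), GRF3 between SBE2.1 (0.01) and AT2G36410 (0.13), and GRF7 between AT5G53650 (0.14) and AT5G53670 (−0.20). GRF6 had AT2G06090 (−0.15) before it and was followed directly by ELF8, a subunit of the PAF1 transcription elongation complex, at 0.33 (SE 0.11; limma adjusted p = 0.188), with no overlap between the genotypes. GRF2 had bZIP7 (−0.12) before it and was followed by ANT, an AP2-type factor that prolongs organ growth, at 0.03 (SE 0.10). The most negative value was that of AT4G24160, after GRF8, at −0.43 (SE 0.19; limma adjusted p = 0.283), while AT4G24140 before it was at 0.0021 (SE 0.10).

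The partners of the GRFs came next. Of the 3 GIF coactivators, AN3, the gene carried by the fusion, was higher at 3.05 (SE 0.19, limma adjusted p = 0.000303). Transcripts of the fusion and of the plant's own AN3 gene cannot be told apart here. GIF2 at 0.11 (SE 0.10) and GIF3 at 0.04 (SE 0.18) did not pass, where 0.560% of all probe sets were higher. GIF3, like most GRFs, was lowest in AN3-GR on replicate 2 (5.85, against 6.37 and 6.57), and replicate 2 was its lowest in the wild type too (6.08). Changes were positive for all 13 SWI/SNF subunits, whose median was 0.15, where 45.8% of all probe sets had a positive change. Of the 13 subunits 0 passed in limma (3 at an unadjusted p under 0.05, against 18.0% of all probe sets). CHR23, an ATPase of the complex, had the largest at 0.36 (SE 0.09; limma adjusted p = 0.0978), and in the fit with the replicate block it alone passed (0.0460). In that fit 3.59% of all probe sets were higher. The core subunit SWI3B followed at 0.36 (SE 0.14). The smallest were SYD, another ATPase (SE 0.09), and BSH (SE 0.13), both at 0.01 and far inside their SEs. Centring the arrays on their medians lowered the change of GRF1 from 0.30 to 0.27. The signs of the subunits after centring were not worked out, so the smallest need not stay positive.

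The measured genes linked to the level or the action of miR396 had changes from −0.16 (TCP3) to 0.41 (TCP2). The microRNA loci MIR396A and MIR396B were not analysed here. bHLH74, a miR396 target outside the family, gave 0.16 (SE 0.10; limma adjusted p = 0.446). Changes were positive for all 6 genes of microRNA processing and action, at a median of 0.24, and for 45.8% of all probe sets. Of the 6 genes 0 passed in limma (2 at an unadjusted p under 0.05, SE and HEN1, against 18.0% of all probe sets). SE, a cofactor of the processing enzyme DCL1, had the largest at 0.35 (SE 0.11; adjusted p = 0.151 in limma) and passed with the block (0.0482). The methyltransferase gene HEN1 was at 0.34 (SE 0.11), and AGO1, the slicer that miR396 guides, was at 0.05 (SE 0.10). The CIN-type TCP factors, of which TCP4 is known to raise miR396, had a median of −0.05 over 5 genes and 0 passed in limma (1 at an unadjusted p under 0.05). TCP2 was the highest at 0.41 (SE 0.12; limma adjusted p = 0.136) and passed with the block (0.0340). In the blocked fit 3.59% of all probe sets were higher. TCP4 was at −0.05 (SE 0.17), and TCP3 was the lowest at −0.16 (SE 0.19).

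**Figure D4:**
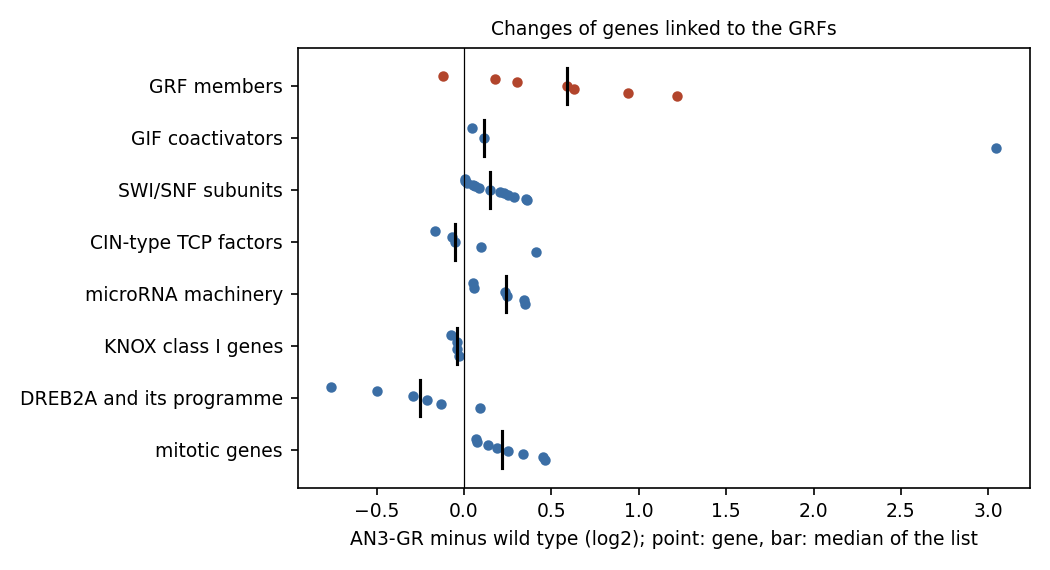
Change between genotypes (AN3-GR minus wild type, log2, horizontal axis) of each gene (points) in the GRF family (red) and in lists of genes linked to it (blue), with the median of each list as a black bar. The GRFs have a median of 0.59, and the medians of the other lists run from −0.25 to 0.24. AN3 is the point at 3.05.

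Genes that GRFs are known to act on were examined as well. GRFs restrain class I KNOX genes, which keep meristem cells undifferentiated. The 4 KNOX genes had changes from −0.07 (KNAT2) to −0.03 (KNAT1) and weak signals, with STM at 4.16 in AN3-GR and 4.20 in the wild type. Their limma adjusted p-values ran from 0.747 to 0.914. DREB2A, the target of GRF7, had values of 7.57 in AN3-GR and 8.07 in the wild type. Its change was −0.50 (SE 0.14) with no overlap between the genotypes, and its limma adjusted p was 0.113 without and 0.0244 with the replicate block. A list set up around DREB2A held 6 genes, DREB2A itself, DREB2B, HSFA3, RD29A, RD29B and COR15A. Which of them DREB2A acts on in these leaves was not tested. Of the 6 genes, 5 had negative changes, as did 11612 of all 21428 probe sets, and the median was −0.25. In limma 0 of the 6 passed (2 at an unadjusted p under 0.05, DREB2A and RD29B, against 18.0% of all probe sets). With the block 2 were lower, DREB2A and COR15A, a chloroplast protein of cold and drought responses, at −0.76 (SE 0.54 without the block; limma adjusted p = 0.491 without and 0.0219 with it). HSFA3, a heat shock factor that DREB2A induces, was the highest at 0.09 (SE 0.09).

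Mitotic genes, which mark the cell division that GRFs sustain, all had positive changes, against 45.8% of all probe sets. The median over the 8 measured was 0.22, and 0 passed in limma (3 at an unadjusted p under 0.05, against 18.0% of all probe sets). CYCB2;2, a B-type cyclin, was at 0.46 (SE 0.11; limma adjusted p = 0.0771) and the kinase gene CDKB2;1 at 0.45 (SE 0.08; adjusted p = 0.0506). With the replicate block 3 were higher, CYCB2;2, CDKB2;1 and the cytokinesis kinesin gene HINKEL at 0.34 (SE 0.13), where 3.59% of all probe sets were higher. CYCB2;1 and KNOLLE, a syntaxin of the cell plate, had the smallest changes, 0.07 (SE 0.09) and 0.07 (SE 0.10). The part of cell number or division stage in the changes of the GRFs was not tested.

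The calls of the 4 GRFs depended on which arrays entered the fit. Without wild type replicate 3 all 4 passed. Without AN3-GR replicate 2 or 3 GRF5 alone passed, at limma adjusted p-values of 0.0220 and 0.0429. When AN3-GR replicate 1 was the array left out none passed (GRF5 adjusted p = 0.0775), and the same held for wild type replicates 1 (0.0528) and 2 (0.0976). Its change meanwhile stayed between 1.14 and 1.33, that of GRF6 between 0.80 and 1.08, that of GRF3 between 0.58 and 0.70 and that of GRF8 between 0.53 and 0.69.

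**Figure D5:**
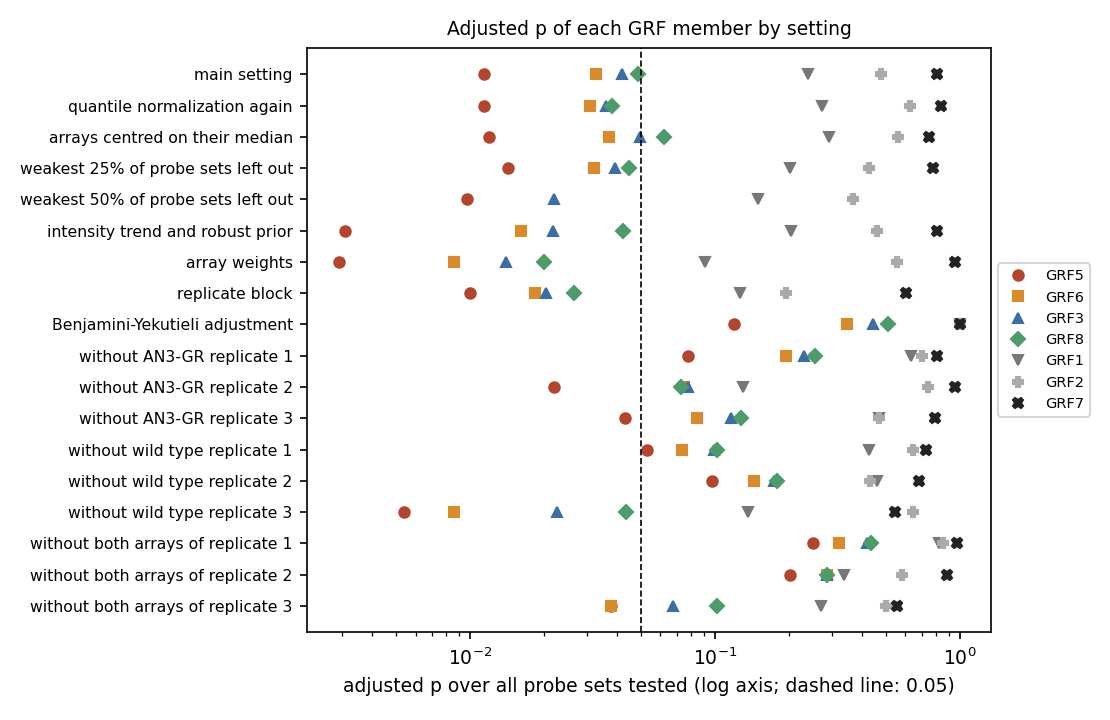
Adjusted p of each GRF (horizontal axis, log scale, with a dashed line at 0.05) in the main setting and in 17 others, one per line. GRF5 is left of the line in 11 of the 17 other settings, GRF3 in 8 of 17, GRF6 in 8 of 16 and GRF8 in 6 of 16, and GRF1, GRF2 and GRF7 are right of it in all.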

How the data were processed

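Total RNA of 6 leaf samples had been hybridised to Affymetrix ATH1 arrays, 1 per sample. Log2 expression values were deposited. For their making, RMA and limma are named in the submitters' processing notes, without versions. RMA corrects background, gives the probes of all arrays one distribution and summarises them on the log2 scale. The deposited values did not share one distribution. Array medians ran from 6.22 (wild type replicate 1) to 6.32 (wild type replicate 2), and lower quartiles from 3.99 to 4.21. With another quantile normalization 241 probe sets passed, against 169 in the main setting. Probe sets carry locus names, per the file headers, and no source used here gives the version of that grouping. Gene symbols and neighbours came from the RefSeq gene table of TAIR10.1, by locus (21231 of 21428 matched).

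Values were used as deposited, without a filter. AN3-GR was set against the wild type in limma 3.58.1 under R 4.3.3 (lmFit, eBayes, no covariate, all 6 arrays), with Benjamini-Hochberg adjustment over all probe sets, and the procedure was tested on simulated data. SEs and intervals are those of limma, whose variance is moderated across probe sets, and SDs are over 3 arrays. The number of arrays limits the precision, and whether repeats came from separate cultures is not stated beyond "biological". No label says that same-numbered arrays shared a growth day, and the main fit does not pair them. The deviations from group means correlated at 0.161, 0.416 and 0.494 between same-numbered arrays, each above a set bound of 0.1. Correlations between arrays of different numbers are not given here. The block was fitted as an alternative.

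The members and lists were chosen with earlier results of these data known. All 7 GRFs and the GIFs were named, as were list members past the threshold, those with extreme changes, the 3 probe sets with the highest r per GRF and the nearest measured neighbours. Genes named by other criteria, such as TCP4, AGO1 and STM for their role and those past the threshold in the blocked fit, were picked once their values were known. Of 74 listed loci 65 were measured. Protein, promoter and microRNA sequences were not used here.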

Additional observations from a re-analysis of the deposited data

How the results depend on the processing

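The main setting had 4 GRFs past the threshold. The number was 2 when the 50% of probe sets with the weakest signal were dropped, where 4 GRFs were tested and both of those that passed, GRF3 and GRF5, had also passed before. It was 0 with Benjamini-Yekutieli adjustment (GRF5 adjusted p = 0.120, limma; 5 GRFs at an unadjusted p under 0.05) and 3 with the arrays centred on their medians. With single arrays, or both arrays of a replicate number (a setting added after the data were seen), left out, it ranged from 0 to 4, while 4 or 5 GRFs had an unadjusted p under 0.05 in limma each time. Without both arrays of replicate 3 it was 2, GRF5 and GRF6, and without those of replicate 1 or 2 it was 0. It stayed at 4 with another quantile normalization, the weakest 25% left out, an intensity trend with robust prior, array weights, and the replicate block, which changed no other call among the GRFs. In every setting run GRF1, GRF2, GRF3, GRF5, GRF6 and GRF8 had positive changes where tested, and GRF1, GRF2 and GRF7 did not pass. The change of GRF7 ran from −0.29 to 0.14 with arrays left out, and it was positive when AN3-GR replicate 2 (0.04), wild type replicate 1 (0.14) or the replicate 1 arrays of both genotypes (0.04) were dropped. Over the whole table the number of probe sets past the threshold was 169 in the main setting, 4 without both arrays of replicate 1, 779 without wild type replicate 3 and 1420 with the block. The cause was not tested.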

Other observations

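The symbol GRF is borne by a second family in Arabidopsis, the 14-3-3 proteins or general regulatory factors, which bind phosphorylated partners. The gene table lists 13 of them, and 7 share a symbol with a growth-regulating factor described here, so a match by symbol would mix the families. Of the 14-3-3 genes 11 were measured, chosen after the data were seen, and 0 passed the test, with or without the replicate block (limma, adjusted p under 0.05; 1 at an unadjusted p under 0.05). Their changes ran from −0.33 to 0.14 with a median of −0.04. The 14-3-3 gene that bears the symbol GRF5 (AT5G16050) had a change of 0.08 (SE 0.17), and the one that bears GRF6 (AT5G10450) a change of −0.04 (SE 0.10).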
